A study of Mus musculus with 495 samples.

Results

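The genes described here are 35 members of the machinery that folds proteins in the endoplasmic reticulum (ER) and of the unfolded protein response. They were chosen by name, with earlier results of these data known. All 35 listed rows were found among the 23002 genes of the count table. They comprised 9 lumenal chaperones and their partners, 2 lectin chaperones, 6 disulfide enzymes, 8 stress sensors and response factors, 7 genes of ER-associated degradation and 3 genes of the translocon. Their levels were compared across 495 single cells of the mouse embryonic pancreas, sequenced with Smart-Seq2 on 7 plates. Smart-Seq2 reads whole transcripts of 1 cell per well and carries no molecular identifiers.

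At embryonic stage E15.5 all cells had the labelled genotype Neurog3-eGFP, a knock-in in which a green reporter sits at the locus of the endocrine progenitor gene Neurog3. The code Neurog3 was given to plates EA01 (73 cells) and EA03 (70 cells), the code endocrine to EA02 (72) and EA05 (85), and the code duct to EA04 (66). At E17.5, plates EA06 (57 cells) and EA07 (72) carried the code Neurog3-cre and the labelled genotype Neurog3-Cre, Rosa-mTmG. In that line Cre under Neurog3 control switches a membrane reporter, so that a cell and its descendants stay marked. No animal, litter or sort gate was used here because the labels gave none. Each group was therefore 1 sample, no p-value was computed, and plates are given side by side.

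Proteins bound for secretion enter the ER through the Sec61 channel. There they are bound by the chaperones BiP (Hspa5) and GRP94 (Hsp90b1), checked by the lectins calreticulin and calnexin, and given disulfide bonds by protein disulfide isomerases, which Ero1 enzymes re-oxidise. Proteins that fail to fold are drawn back to the cytosol for degradation. When unfolded protein accumulates, the sensors IRE1 (Ern1), PERK (Eif2ak3) and ATF6 act through XBP1, ATF4 and cleaved ATF6 to raise chaperone and degradation genes and to lower translation. Acinar cells, which secrete digestive enzymes, and beta cells, which secrete insulin, are textbook examples of cells with a heavy folding load.

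Classes of cells were drawn from the named genes of other programmes, not from the 35 members. On EA04, 43 cells with the carboxypeptidase gene Cpa1 at 1000 CPM or more (CPM are counts per 1000000 counts of a cell) were called acinar, and 23 were not. The highest cell below that line had 347 CPM and the lowest above it 1682 CPM. Elsewhere, cells with a hormone at 1000 CPM and at 50% or more of their hormone counts were assigned to it, which gave 69 insulin-, 19 glucagon-, 27 somatostatin-, 28 ghrelin- and 11 pancreatic polypeptide-dominated cells. A further 186 cells had Neurog3 at 20 CPM or more and no such hormone level, 88 had neither, and 1 cell had no dominant hormone. The nearest cells on either side of the lines had 17.1 and 20.3 CPM for Neurog3 and 687 and 1053 CPM for insulin (Ins1 and Ins2 summed).

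The labels and the markers were set side by side first. The 43 acinar cells had 12757 CPM of Cpa1 and 64965 CPM over 19 acinar marker genes, 18 of which reached 20 CPM. The 23 other cells of EA04 had 122.7 CPM over those 19 genes. Of 9 duct genes they had 8 at 20 CPM or more (6495 CPM summed), and of 7 mesenchyme genes 5 (6668 CPM), so they were called only other cells of EA04. Neurog3-positive cells had 2557 to 4058 CPM of Neurog3 by plate. Insulin-dominated cells had 29666 to 90820 CPM of insulin by plate, and 40.1 to 112.9 CPM over the acinar genes except on EA02, where 1 cell with Cpa1 above 1000 CPM brought the mean to 6773 CPM. Cells held 200152 to 1182889 counts (median 533363), and the ribosomal RNA gene Rn45s took 20.6 to 23.04% of counts on EA01 to EA04 and 8.83 to 10.3% on EA05 to EA07.

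Promoters of the members were read for the ER stress response element, the sequence bound by ATF6 and XBP1 with NF-Y, because several of the genes that differed between classes are known from it. RefSeq promoters (build GRCm38.p6, 250 bases before the start) were held for 28 of the 35 members. On both strands, the letters CCAAT followed by CCACG after any 9 bases were found in 9 of those 28, and in 37 of 32851 promoters of the same length (0.113%). The shorter ERSE-II, ATTGG and CCACG with 1 base between, was found in Herpud1 only among the 28, and in 10 promoters of all (0.0304%). The letters TGACGTGG were in 0 of the 28 and in 185 promoters (0.563%). A match is a description of these letters and shows no binding. Because several members are already known from the element, their share beside that of all promoters is no independent support. The stretches below are printed 5′ to 3′ on the gene's strand with the match in capitals, and those that read CGTGG first hold it on the opposite strand. All lie upstream of the annotated start. The first 5 belong to genes whose levels are followed through the classes below.

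Hspa5 (chr2:34772010-34772058, plus strand): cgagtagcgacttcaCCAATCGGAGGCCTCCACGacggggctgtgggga
Hsp90b1 (chr10:86705518-86705671, minus strand): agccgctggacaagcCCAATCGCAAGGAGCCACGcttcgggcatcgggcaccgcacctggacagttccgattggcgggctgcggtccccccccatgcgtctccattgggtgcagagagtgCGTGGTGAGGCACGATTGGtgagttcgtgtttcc
Dnajc3 (chr14:118937812-118937860, plus strand): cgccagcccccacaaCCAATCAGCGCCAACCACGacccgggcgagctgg
Creld2 (chr15:88819505-88819553, plus strand): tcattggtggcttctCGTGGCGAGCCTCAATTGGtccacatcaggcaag
Pdia6 (chr12:17266476-17266524, plus strand): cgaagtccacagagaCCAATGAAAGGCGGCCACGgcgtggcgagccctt
Calr (chr8:84847060-84847108, minus strand): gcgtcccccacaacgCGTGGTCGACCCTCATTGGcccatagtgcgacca
Canx (chr11:50325785-50325833, minus strand): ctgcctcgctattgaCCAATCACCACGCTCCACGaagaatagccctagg
Derl3 (chr10:75893227-75893275, plus strand): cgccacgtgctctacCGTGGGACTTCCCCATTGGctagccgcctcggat
Syvn1 (chr19:6046517-6046565, plus strand): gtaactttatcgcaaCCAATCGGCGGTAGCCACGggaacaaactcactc
Herpud1 (chr8:94386362-94386402, plus strand): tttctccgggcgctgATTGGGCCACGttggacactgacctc

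Summed over the 35 members, the median insulin-dominated cell stood above the median Neurog3-positive cell on each plate that held both. Single cells overlapped: on EA05 insulin-dominated cells began at 4918 CPM and Neurog3-positive cells reached 9727 CPM. Acinar cells came from EA04 only, which held no Neurog3-positive cells. Their median lay above the Neurog3-positive medians of the other plates, and class and plate cannot be told apart there. The median acinar cell had 14981 CPM, with cells from 11147 to 22827. The median Neurog3-positive cell had 4774 to 6812 CPM by plate, and the median insulin-dominated cell 11710, 18234, 16671, 19078, 17024 and 35067 CPM on EA01, EA02, EA03, EA05, EA06 and EA07. Glucagon-dominated cells of EA05 had a median of 6646 CPM, and the 23 other cells of EA04 had 8734 CPM. Somatostatin-dominated cells had 9757, 5954 and 13803 CPM on EA05, EA06 and EA07, and ghrelin-dominated cells 7003 and 9341 CPM on EA06 and EA07. The number of genes read per cell moved with the class. Thinned to 200000 counts, the median was 4266 in acinar cells, 2633 to 4194 by plate in insulin-dominated cells and 1939 to 3589 in Neurog3-positive cells, and its part in these sums was not tested.

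**Figure D1:**
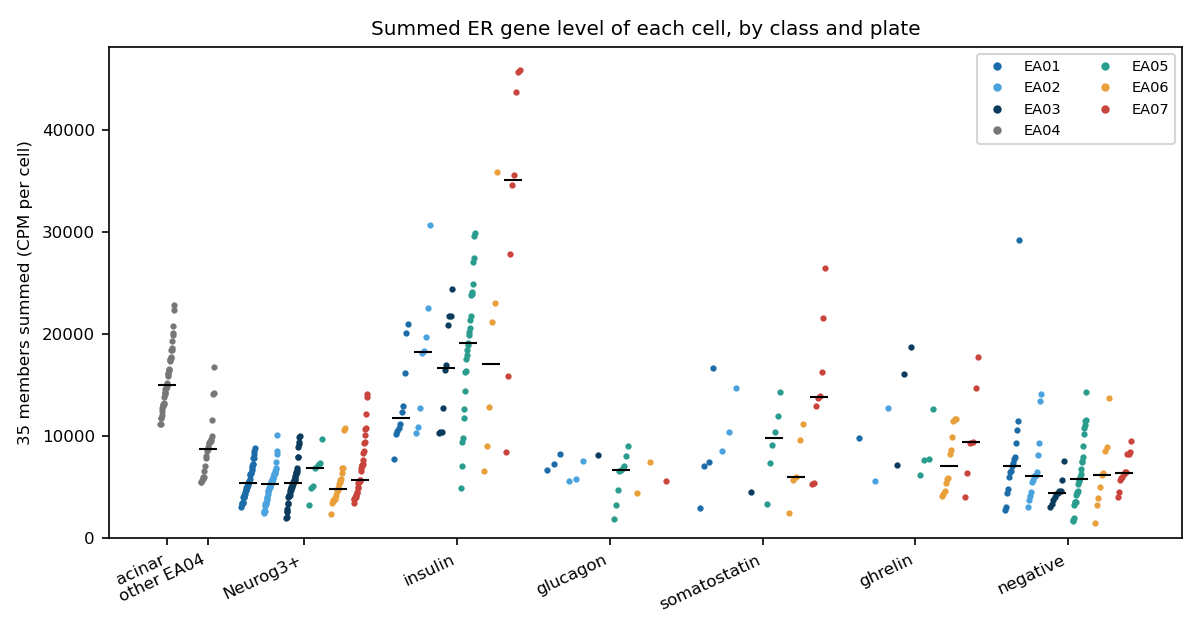
Summed level of the 35 members in each cell (CPM), grouped by class and plate, with bars at the medians. The acinar median is 14981 CPM, Neurog3-positive medians lie between 4774 and 6812 CPM, and insulin-dominated medians between 11710 and 35067 CPM.

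Insulin-dominated cells were set against Neurog3-positive cells of the same plate, on 6 plates. A class level is the mean CPM over at least 5 cells of a plate, and a ratio is log2 of the 2 levels after 5 CPM are added to each, averaged over plates with equal weight. Of the 35 members, 32 reached 20 CPM in either class, 2 of them only through the insulin-dominated and 1 only through the Neurog3-positive cells. At 2-fold or more, 25 were higher in insulin-dominated cells and 1 lower, with a median log2 ratio of 1.74 (1.29 to 1.95 by plate). Over the 7760 genes at that level the median was -0.21, and 13.1% were higher and 19.7% lower by as much. Higher on all 6 plates were 19 members (6.03% of all genes), and lower on all 6 were 0 (9.48%). On EA01 to EA03, 26 of 28 insulin-dominated cells came from well rows C, D, G and H, against 15 of the Neurog3-positive cells there (39, 42 and 43 by plate). On EA05 to EA07 alone, 23 members were higher and 1 lower, with a median of 1.78, against 20.8% and 22.7% of all genes.

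All 9 lumenal chaperones and partners were at least 2-fold higher in insulin-dominated cells. Sdf2l1, which keeps BiP clients soluble, was nearly unread in Neurog3-positive cells, with 2.22, 1.04, 1.27, 0, 0 and 46.3 CPM on EA01, EA02, EA03, EA05, EA06 and EA07. In insulin-dominated cells it stood at 163, 175, 293, 223, 235 and 1215 CPM in that order, a log2 ratio of 5.11 (4.54 to 5.58 by plate) whose size rests on the added 5 CPM. No plate overlapped between the classes. Sdf2l1 reached 10 CPM in 5.91% of Neurog3-positive cells (exact interval 2.99 to 10.3%) and in 73.9% of insulin-dominated cells (61.9 to 83.7%). These intervals, at 95%, cover counting error only.

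Manf, a secreted ER protein that stabilises BiP and its clients, had a narrow spread over plates. Its levels were 142.6, 119.3, 144.7, 216, 207 and 107.1 CPM in Neurog3-positive cells and 811, 1258, 1318, 1850.2, 1559.5 and 1132 CPM in insulin-dominated cells of the same plates. The log2 ratio was 3.04 ± 0.33 (SD, n = 6 plates), and the lowest insulin-dominated plate lay above the highest Neurog3-positive plate. Creld2, an ER-resident partner of the disulfide isomerases, was at 22.99 to 101.6 CPM against 214 to 1215 CPM, a log2 ratio of 3.13 ± 1.28 (SD, n = 6 plates).

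BiP itself, encoded by Hspa5, ranged from 294 to 1015 CPM in Neurog3-positive cells and from 1330.5 to 4600.2 CPM in insulin-dominated cells. The classes did not overlap over plates, and the log2 ratio was 1.89 ± 0.77 (SD, n = 6 plates). Hsp90b1 was at 232 to 432 against 1010.1 to 3420.0 CPM (log2 ratio 2.23 ± 0.54). Dnajc3, a co-chaperone of BiP that also restrains PERK, was at 2.25 to 264 against 304 to 619 CPM (2.86 ± 1.53). The other members of the group were less even: Hyou1 and Dnajb11 were higher on 5 of 6 plates each, with log2 ratios from -0.31 to 3.73 and from -0.24 to 2.80.

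The lectin chaperones and all 6 disulfide enzymes were also 2-fold or more higher. Calr had a log2 ratio of 1.45 ± 1.07 and Canx of 1.89 ± 0.87 (SD, n = 6 plates). Ero1lb, the beta cell form of the oxidase that recharges disulfide isomerases, was at 13.3, 29.2, 40.1, 0, 26.5 and 103.02 CPM in Neurog3-positive cells and at 310.4, 979.6, 461, 518, 431 and 696 CPM in insulin-dominated cells. The groups did not overlap, and the log2 ratio was 4.25 ± 1.40. Pdia6, an isomerase that acts on proinsulin and on IRE1, was at 17.4 to 254 against 878 to 2481 CPM (3.23 ± 1.38). P4hb, the archetypal disulfide isomerase, was at 406 to 832 against 973 to 3160.3 CPM (1.35 ± 0.32). Ero1l, the more widely expressed oxidase, was higher on 4 of 6 plates only.

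Sensors and factors behaved differently from the folding genes. Of 8 members, 5 were measured, 1 was 2-fold higher and 1 lower. Xbp1, the transcription factor whose mRNA IRE1 splices, stood at 306, 686, 406, 398, 707 and 316 CPM against 87.4, 136.7, 148.3, 283, 187 and 147.1 CPM in Neurog3-positive cells, a log2 ratio of 1.49 ± 0.64 (SD, n = 6 plates). Counts per gene do not separate its spliced from its unspliced form. Atf4, the factor translated when PERK or a related kinase is active, was at 111.5, 150.9, 251, 210.2, 380.3 and 267 CPM against 302, 302, 351, 684, 267 and 332 CPM, higher on 1 of 6 plates, with a log2 ratio of -0.72 ± 0.80. Eif2ak3, which encodes PERK, had a log2 ratio of -1.07, but it rested on EA05, where 7 Neurog3-positive cells had 164 CPM. Without EA05, 0 members were 2-fold lower. Atf6 (0.17 ± 1.01) and Ddit3, the pro-apoptotic factor CHOP (-0.26 ± 2.23), were within their spread over plates, and Ern1, Trib3 and Chac1 were below 20 CPM in both classes.

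Of the degradation genes, 4 of 7 were higher by 2-fold or more. Derl2, a channel subunit of retrotranslocation, was higher on 6 of 6 plates (158 to 403 CPM against 0.271 to 124.8 CPM). Derl3, its close relative, was read in 0 of 186 Neurog3-positive cells, pooled over plates and stages. With cells counted as independent, this allows a share of up to 1.61% of cells with a read, for counting error only. In insulin-dominated cells Derl3 was at 0, 99.2, 41.4, 115.3, 50.98 and 126.5 CPM, and 27.5% of cells had at least 10 CPM. Edem1, a mannosidase-like protein that marks misfolded glycoproteins, and Herpud1, a scaffold of the degradation complex, were each higher on 4 of 6 plates. Sel1l, the scaffold of the ubiquitin ligase Syvn1, had a log2 ratio of -0.57 ± 0.92 and Syvn1 of 0.35 ± 0.58. All 3 translocon genes were higher on 6 of 6 plates, with log2 ratios of 1.44 (Sec61b), 1.86 (Sec61a1) and 1.73 (Ssr1).

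**Figure D2:**
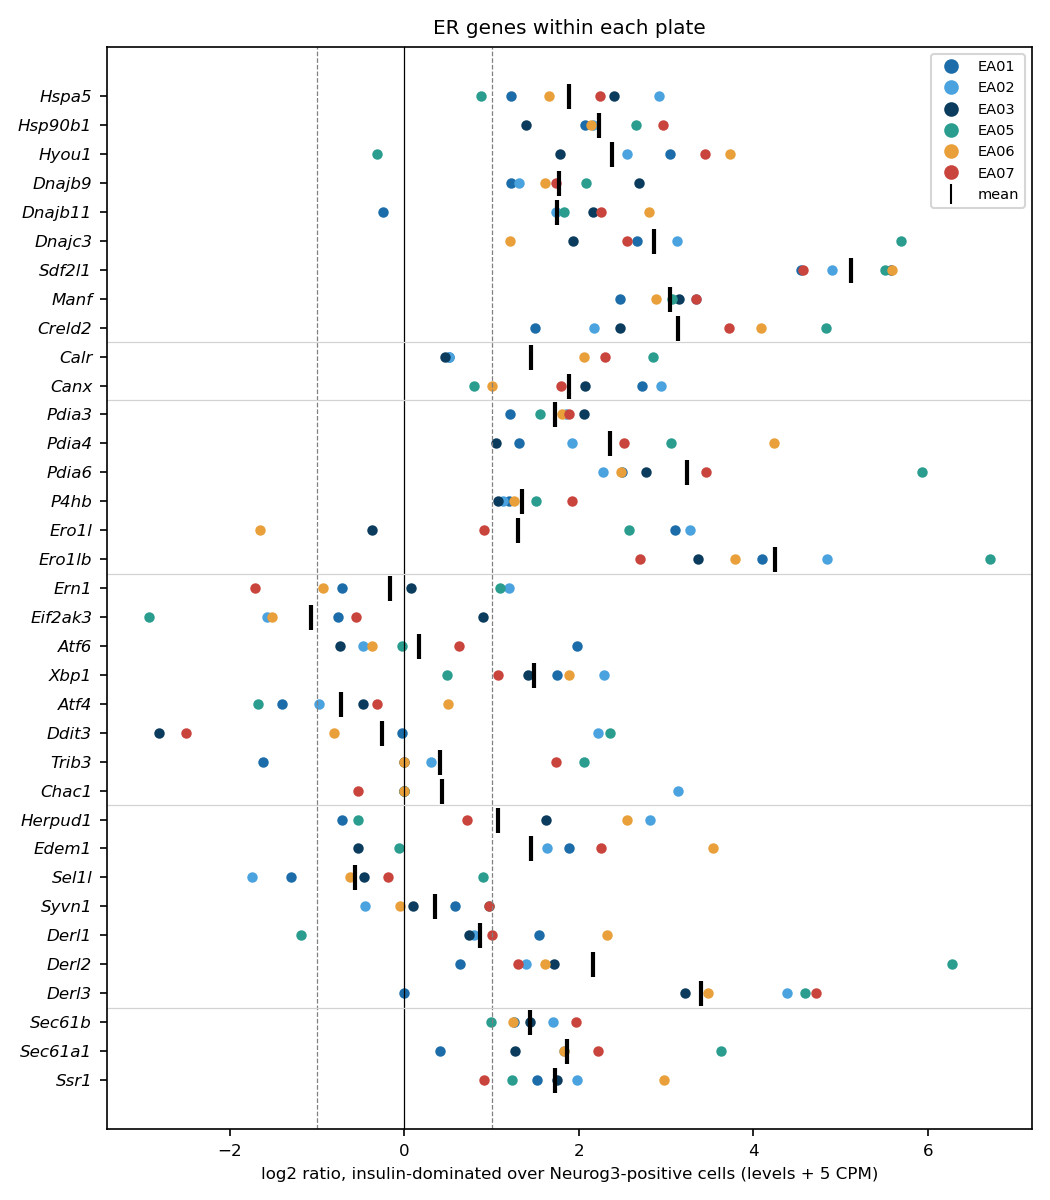
Log2 ratio of insulin-dominated to Neurog3-positive cells for each member, with 1 point per plate (6 plates), a tick at the mean and dashed lines at 2-fold. Points of Sdf2l1, Manf and Ero1lb all lie above 2-fold, whereas Atf4 has 1 plate above 0.

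Summed levels of 14 immediate early genes, which cell handling can raise, also differed between these classes. They were 3575 to 8180 CPM by plate in Neurog3-positive cells and 1528 to 6977 CPM in insulin-dominated cells, and their part in the ratios of Atf4 and Ddit3 was not tested. Atf3, a stress factor of the same branch, is among these 14 genes and also stands in the list of ATF4 targets below. It was at 50.2 CPM in insulin-dominated and 334 CPM in Neurog3-positive cells, lower on 6 of 6 plates.

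The other genes of the secretory pathway were counted over 7 further lists in the same comparison. Glycosylation and glycan trimming had 10 of 13 measured genes higher and 0 lower, among them Ostc, a subunit of the oligosaccharyltransferase (1058 against 278 CPM). Translocation and signal peptide cleavage had 8 of 18 higher and 0 lower, with the signal peptidase subunit Sec11c at 295 against 18.8 CPM. Transport from ER to Golgi had 7 of 15 higher and 0 lower, including the cargo receptor gene Tmed3 (611 against 73.5 CPM). More folding enzymes had 6 of 16 higher and 2 lower, led by the prolyl isomerase gene Fkbp11 (144.3 against 1.52 CPM). Targets of ATF4 had 3 of 17 higher and 2 lower, and more degradation genes 2 of 13 and 1. A list of membrane-bound factors, their proteases and the factor gene Bhlha15 had 2 of 6 higher (Atf6b and Bhlha15) and 0 lower. Of all genes 13.1% were higher and 19.7% lower, and the higher shares of ATF4 targets and degradation genes lay near that.

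Acinar cells were set against Neurog3-positive cells at E15.5, as the mean of EA01, EA02, EA03 and EA05. These are partly the same Neurog3-positive cells as above. Since all acinar cells came from EA04, class and plate cannot be told apart in this comparison. Of the 35 members 31 were measured, 2 only through the acinar and 1 only through the Neurog3-positive cells. At 2-fold or more, 18 were higher and 2 lower, with a median log2 ratio of 1.28. Over 7565 genes the median was -0.28, with 19.7% higher and 28.9% lower. With DESeq2 size factors the share of all genes became 28.7% higher and 19.1% lower, and with TMM factors 25.1% and 22.1%. Above each of the 4 reference plates were 19 members (25.6% of all genes), and below each was 1 (27.2%).

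By role, 7 of 9 lumenal chaperones and partners, all 6 disulfide enzymes, 1 of 2 lectin chaperones and 2 of 3 translocon genes were 2-fold or more higher. P4hb was at 2722 ± 917 CPM in acinar cells (SD over 43 cells, which are not replicates) and at 684, 732, 682 and 493 CPM in Neurog3-positive cells of EA01, EA02, EA03 and EA05, a log2 ratio of 2.06. Pdia6 was at 1199 against 152.2, 254, 197 and 17.4 CPM (2.91), and Hspa5 at 1476 against 567, 294, 474 and 1015 CPM (1.32). Sdf2l1 was at 142.9 against 2.22, 1.04, 1.27 and 0 CPM (4.59), and 81.4% of acinar cells had at least 10 CPM of it (exact interval 66.6 to 91.6%). For each of these 4 genes the acinar level lay above all 4 reference plates. Dnajb9 (0.10) and Hyou1 (0.54) were less than 2-fold apart.

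Among factors, degradation genes and the translocon, single members stood out. Xbp1 was at 1053 ± 462 CPM in acinar cells (SD over 43 cells) against 87.4, 136.7, 148.3 and 283 CPM, a log2 ratio of 2.65, and 100% of acinar cells had at least 10 CPM against 39.8% of the 186 Neurog3-positive cells of both stages. Edem1 was at 616 ± 409 CPM against 48.4, 37.6, 73.9 and 121.8 CPM (3.04), the largest ratio among the degradation genes of the 35. It was read at 10 CPM or more in 97.7% of acinar cells and in 18.8% of the 186 Neurog3-positive cells of both stages. Sec61a1, the pore of the channel (882 against 166 CPM, 2.38), and Ssr1, a subunit of the channel-associated TRAP complex (775 against 125.96 CPM, 2.58), were higher, whereas the small channel subunit Sec61b was at 439 against 421 CPM (0.06).

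Atf4 was the member below each reference plate. Acinar cells had 121.5 CPM, against 302, 302, 351 and 684 CPM, a log2 ratio of -1.71 (-2.45 to -1.28 by plate). Eif2ak3 also counted as 2-fold lower (17.95 against 44.6 CPM), but acinar cells were above 3 of the 4 plates, and without EA05 only Atf4 was lower. Chac1, a late target of ATF4 and CHOP, was at 0 in all 43 acinar cells. With cells counted as independent, this allows up to 6.98% of cells with a read, for counting error only. Immediate early genes summed to 1830 CPM in acinar cells against 3575 to 8180 CPM in Neurog3-positive cells, and their part in the Atf4 value was not tested.

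**Figure D3:**
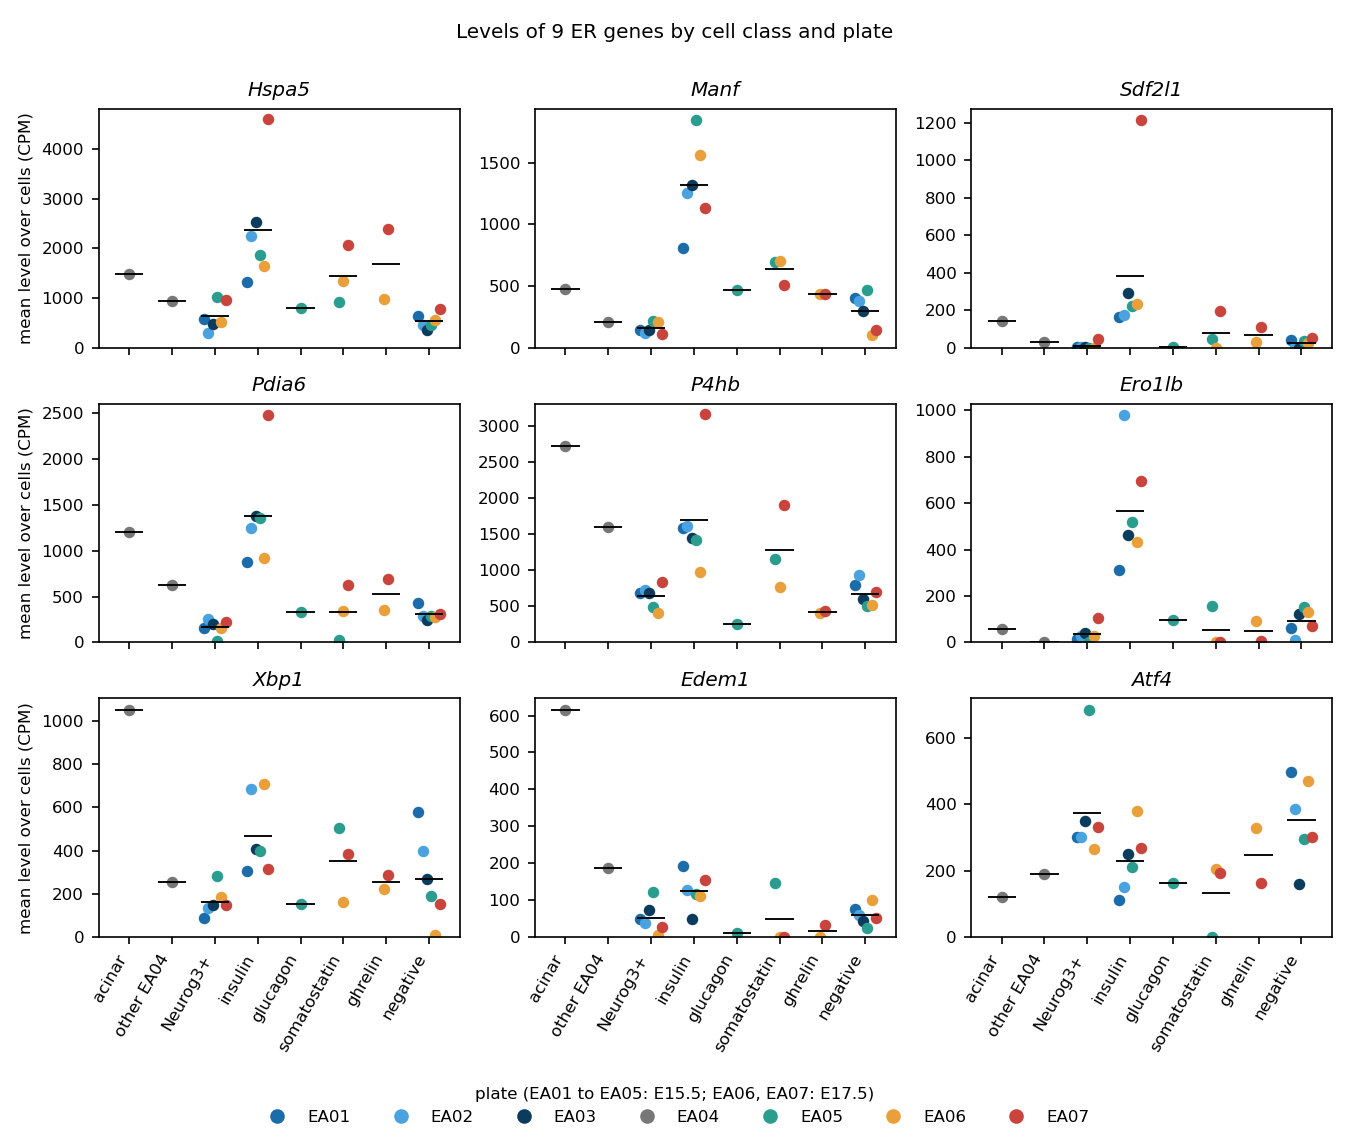
Mean CPM of 9 members by class, with 1 point per plate and a black bar at the mean over plates. Acinar cells are highest for Xbp1 (1053 CPM) and Edem1 (616 CPM), insulin-dominated cells for Manf (811 to 1850.2 CPM) and Ero1lb (310.4 to 979.6 CPM), and Atf4 is at 121.5 CPM in acinar cells.

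Within the broader lists, acinar cells were at 2-fold or more above Neurog3-positive cells for 10 of 18 further folding enzymes, 8 of 14 glycosylation genes and 9 of 16 transport genes, and at 2-fold or more below for 1, 0 and 0. Fkbp11 was at 319 against 0.246 CPM. Erp27 and Pdia2, pancreatic members of the disulfide isomerase family, were at 223 and 159 CPM and at 0 CPM in Neurog3-positive cells. Bhlha15, which encodes the secretory cell factor MIST1, was at 167 against 0.0169 CPM. Translocation genes had 5 of 18 higher and 1 lower, and more degradation genes 3 of 13 and 2. The list of membrane-bound factors, their proteases and Bhlha15 had 3 of 6 higher (Creb3l1, Creb3l4 and Bhlha15) and 2 lower. Of all genes 19.7% were higher (28.7% with DESeq2 factors), and the shares of translocation and degradation genes lay near that.

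Targets of ATF4 and stress feedback genes had 7 of 15 higher and 2 lower in acinar cells. The higher ones included enzymes of serine and asparagine synthesis. Phgdh was at 563 against 4.46 CPM, Asns at 645 against 8.29 CPM and Psat1 at 186 against 5.76 CPM. Nupr1, a stress-induced chromatin protein, was at 776 CPM and at 0 CPM in Neurog3-positive cells. The 2 lower genes were Atf3 and Ppp1r15a, the latter a phosphatase subunit that ends the translational block. Atf3 is also among the immediate early genes. Inside EA04, against the 23 other cells of the plate, 6 of 17 genes of this list were higher and 4 lower, where 13.3% and 27.8% of all genes were. There Nupr1 was at 776 against 8.25 CPM and Asns at 645 against 38.5 CPM, while Atf4 was at 121.5 against 189.8 CPM, less than 2-fold lower.

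Inside EA04, acinar cells were compared with the 23 other cells of the same plate. Of 30 measured members (1 only through the acinar cells), 13 were 2-fold or more higher and 0 lower, with a median log2 ratio of 0.96. Over 7890 genes the median was -0.28, with 13.3% higher and 27.8% lower. Degradation genes made up 5 of the 13: Herpud1 (254 against 61.1 CPM), Edem1 (616 against 186 CPM), Sel1l (287 against 78.2 CPM), Derl1 (111.3 against 33.3 CPM) and Derl2 (114.9 against 37.2 CPM). Xbp1 was at 1053 against 256 CPM (log2 ratio 2.02), Sdf2l1 at 142.9 against 29.8 CPM (2.09) and Ero1lb at 59.5 against 3.01 CPM (3.01). Abundant chaperones and isomerases differed less. Hspa5 was at 1476 against 931 CPM, Hsp90b1 at 997 against 659 CPM and Pdia3, the isomerase that works with the lectins, at 850.2 against 926 CPM. Genes read per thinned cell had medians of 4266 and 3830, and summed mesenchyme genes were at 32.6 and 6668 CPM. Their part in the ratios was not tested.

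Acinar and insulin-dominated cells of E15.5 were then compared directly, acinar cells of EA04 against the mean of EA01, EA02, EA03 and EA05. Class and plate cannot be told apart here either. Of 31 measured members (1 only through the insulin-dominated cells), 3 were 2-fold or more higher in acinar cells and 7 lower, with a median log2 ratio of -0.44. Over 7618 genes the median was -0.15, with 21% higher and 26.2% lower. Higher than each insulin-dominated plate were 6 members (26.5% of all genes) and lower than each were 11 (23.6%).

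The 2-fold counts lay below the shares of all genes in both directions, so the members are described singly. Acinar cells were higher in Edem1, at 616 against 192, 127.2, 49.8 and 117.1 CPM (log2 ratio 2.29), in Xbp1, at 1053 against 306, 686, 406 and 398 CPM (1.22), and in Sel1l, at 287 against 155.6 CPM on the highest insulin-dominated plate (1.32). None of the insulin-dominated plates reached the acinar level for these 3 genes. P4hb (0.85), Sec61a1 (0.90) and Ssr1 (0.99) were also above all 4 plates but by less than 2-fold. With TMM or DESeq2 factors 7 members were 2-fold higher and 5 lower, against 25.8% and 22.4% of all genes with TMM and 27.9% and 20.5% with DESeq2.

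Insulin-dominated cells were higher in Ero1lb, at 310.4, 979.6, 461 and 518 CPM against 59.5 CPM in acinar cells (log2 ratio -3.15), and in Manf, at 811, 1258, 1318 and 1850.2 against 477 CPM (-1.45). Creld2 (177 against 505 CPM, -1.48), Dnajb9, a J-domain partner of BiP that represses IRE1 (76.8 against 277 CPM, -1.79), Derl2 (114.9 against 258 CPM) and Sec61b (439 against 1004 CPM, -1.19) were also lower in acinar cells than on each insulin-dominated plate. Derl3 (13.2 against 63.99 CPM) was not, since EA01 had 0 CPM. Other members were close: Pdia6 at 1199 against 1215 CPM, Dnajc3 at 377 against 359 CPM, and Herpud1 at 254 against 255 CPM. Among the lists, ATF4 targets had 10 of 17 genes higher in acinar cells and 2 lower, with Phgdh at 563 against 26.5 CPM and Asns at 645 against 65.1 CPM. Translocation genes had 0 of 18 higher and 2 lower.

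**Figure D4:**
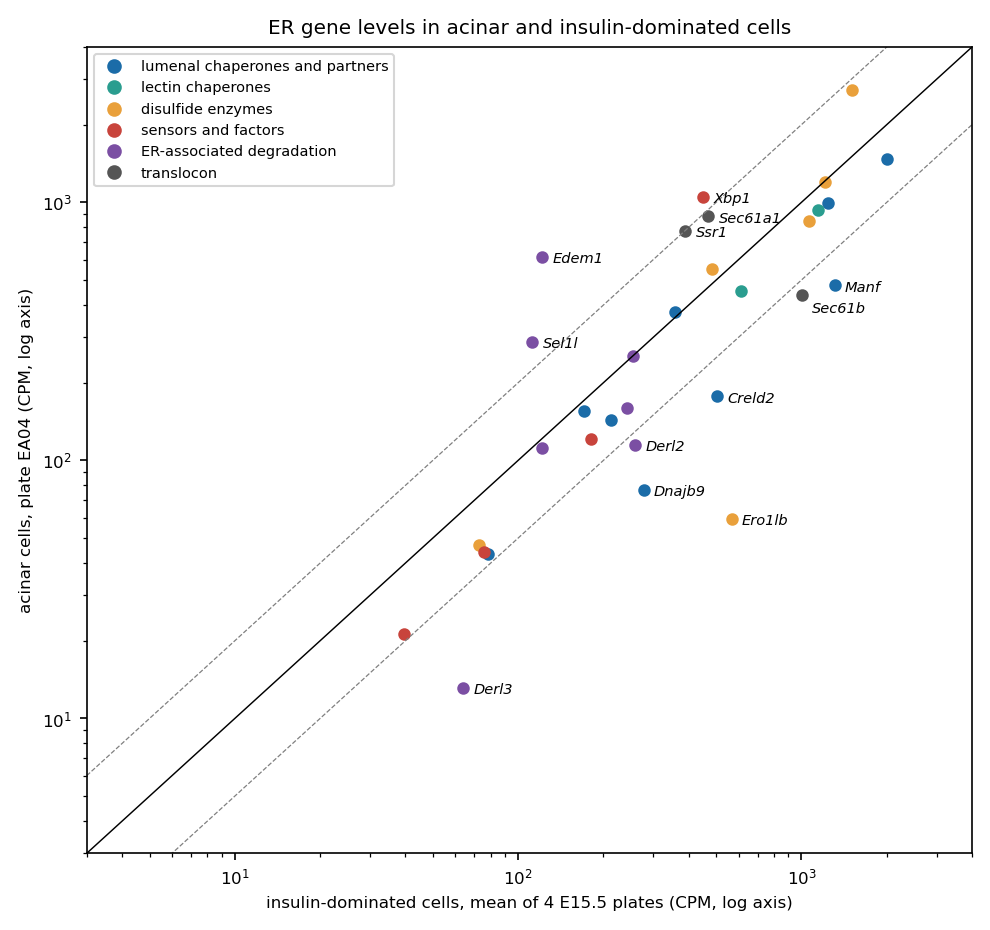
Mean CPM of each member in acinar cells and in insulin-dominated cells of 4 E15.5 plates (both axes log), coloured by role, with dashed lines at 2-fold and names for the more different members. Edem1, Sel1l and Xbp1 lie on the acinar side and Ero1lb, Derl3, Dnajb9, Creld2, Manf, Sec61b and Derl2 on the insulin side.

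Per kilobase of exon, which allows genes to be compared with each other, the order of levels differed by class. The order is given for the genes named here only, and other members can lie between them. In acinar cells P4hb stood at 951 CPM per kb, followed among the genes named here by Hspa5 (349), Sec61b (345), Xbp1 (324) and Pdia6 (320), which lay close together. In insulin-dominated cells Sec61b was at 901 CPM per kb, ahead of P4hb (593), Hspa5 (561), Creld2 (485) and Pdia6 (368), and Xbp1 was at 144.6. In Neurog3-positive cells Sec61b (354) and P4hb (223) led, with Hspa5 at 151.1, Xbp1 at 50.7 and Edem1 at 8.14. Edem1 was at 95.4 CPM per kb in acinar and 19.4 in insulin-dominated cells.

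Glucagon-dominated cells reached 5 cells on EA05 only, where 9 were set against 7 Neurog3-positive cells. Of 30 measured members (6 only through the glucagon-dominated and 5 only through the Neurog3-positive cells), 12 were 2-fold or more higher and 9 lower, with a median log2 ratio of -0.10. Over 7149 genes the median was 0.26, with 40.3% higher and 29.6% lower, so that both member shares lay near those of all genes. Manf was at 470.1 against 216 CPM, Creld2 at 208 against 22.99 CPM and Pdia6 at 329.9 against 17.4 CPM. Herpud1 (4.32 against 193 CPM), Atf6 (2.16 against 100.2 CPM) and Atf4 (163 against 684 CPM) were lower. That Atf4 level of the 7 Neurog3-positive cells stood apart from the other plates of their class, which had 267 to 351 CPM.

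On that same plate, 27 insulin-dominated cells had 27 of 33 measured members 2-fold or more above the 9 glucagon-dominated cells and 1 below (Chac1), with a median log2 ratio of 1.78. Of the 33, 8 were measured only through the insulin-dominated and 1 only through the glucagon-dominated cells. Over 7636 genes the median was 0.00, with 29.6% higher and 26.5% lower. All 9 lumenal chaperones and partners were among the 27. Sdf2l1 was at 223 against 3.87 CPM, Hspa5 at 1874 against 805 CPM, P4hb at 1412 against 255 CPM and Derl2 at 403 against 35.7 CPM. This difference was seen on 1 plate and has no replicate check.

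Somatostatin-dominated cells were compared with Neurog3-positive cells on EA05, EA06 and EA07, with 6, 5 and 8 cells. Of 32 measured members (2 only through the somatostatin-dominated and 3 only through the Neurog3-positive cells), 8 were 2-fold or more higher and 8 lower, with a median log2 ratio of 0.45 (-0.37 to 1.04 by plate). Over 8129 genes the median was -0.30, with 17.1% higher and 31.7% lower. Higher on all 3 plates were 9 members (8.88%) and lower on all 3 were 4 (18.2%). With 1 plate left out, 9 to 14 members were 2-fold higher and 6 to 11 lower, with medians of 0.33 to 0.91. Manf was at 693, 706 and 510.5 CPM against 216, 207 and 107.1 CPM, a log2 ratio of 1.87 ± 0.29 (SD, n = 3 plates), and P4hb at 1150.3, 763 and 1903 against 493, 406 and 832 CPM (1.102 ± 0.17). Ern1, the IRE1 gene, was at 15.47, 204 and 50.6 CPM against 9.40, 9.78 and 12.2 CPM. Eif2ak3 was at 0 on all 3 plates. In Neurog3-positive cells Eif2ak3 was at 164 CPM on EA05 and at 0 to 28.04 CPM on the other plates of either stage. Sel1l was at 36.6, 2.08 and 5.58 against 80.8, 244 and 109.7 CPM. Most other members changed order between plates, Creld2 for example being at 26.98, 1.82 and 421 CPM against 22.99, 38.9 and 87.8 CPM.

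Ghrelin-dominated cells were compared on EA06 (12 cells) and EA07 (6 cells), and 14 of the 18 also had Neurog3 at 20 CPM or more. Of 30 measured members (1 only through each class), 11 were 2-fold or more higher and 2 lower, with a median log2 ratio of 0.69. Over 8202 genes the median was -0.15, with 15.8% higher and 26.1% lower. Higher on both plates were 15 members (23.5%) and lower on both were 7 (30.1%). On either plate alone, 11 to 12 members were 2-fold higher and 4 to 5 lower, with medians of 0.35 to 0.62. Hspa5 was at 982 and 2399 CPM against 517 and 966 CPM, Manf at 439 and 437 against 207 and 107.1 CPM, and Creld2 at 132.1 and 249 against 38.9 and 87.8 CPM. P4hb was not higher, at 401 and 434 against 406 and 832 CPM, and Sec61b was at 516 and 143.6 against 736 and 275 CPM. Derl1, a further channel subunit of degradation, was at 1.18 and 23.9 against 93.5 and 85.1 CPM. Polypeptide-dominated cells did not reach 5 on any plate and were not compared.

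The comparisons of the 4 hormone classes share only part of their Neurog3-positive cells. Plates were all but EA04 for insulin, EA05 for glucagon, EA05 to EA07 for somatostatin, and EA06 and EA07 for ghrelin. Glucagon and ghrelin thus share no Neurog3-positive cell, and plate, stage and genotype differ between the references. The ratios are given side by side only. For Manf the log2 ratios were 3.04 for insulin, 1.102 for glucagon, 1.87 for somatostatin and 1.52 for ghrelin. For Hspa5 they were 1.89, -0.33, 0.77 and 1.11, for P4hb 1.35, -0.94, 1.102 and -0.47, and for Xbp1 1.49, -0.87, 0.67 and 0.59. For Ero1lb they were 4.25 for insulin, -0.65 for somatostatin and -0.83 for ghrelin, and glucagon-dominated cells of EA05 had 97.3 CPM against 0 CPM in 7 Neurog3-positive cells. Differences between the hormone classes were not tested.

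Neurog3-positive cells of E17.5 (EA06 and EA07) were compared with those of E15.5. Of 31 measured members (2 only through each stage), 5 were 2-fold or more higher and 3 lower, with a median log2 ratio of 0.17. Over 7849 genes the median was 0.29, with 24% higher and 8.77% lower. On both E17.5 plates 7 members were above and 6 below the E15.5 mean, against 34.4% and 22.2% of all genes. Stage, genotype and plate cannot be told apart in this comparison. Hspa5 was at 517 and 966 CPM against 567, 294, 474 and 1015 CPM, and Manf at 207 and 107.1 against 142.6, 119.3, 144.7 and 216 CPM, with overlapping plates. Edem1 was below all 4 E15.5 plates on both, at 4.98 and 28.3 against 48.4, 37.6, 73.9 and 121.8 CPM. Ero1l was higher by a log2 ratio of 2.25, from 119.5 CPM on EA06 and 27.8 CPM on EA07 against 3.07 to 26.4 CPM. Sdf2l1 counted as higher through EA07 alone (0 and 46.3 CPM).

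Folding genes were also set against the secreted product within single cells. The 9 lumenal chaperones and partners were summed, as CPM of a total without the product genes, and ranked against 21 acinar enzyme genes or against Ins1 and Ins2. In insulin-dominated cells of EA05, Spearman's rank correlation was 0.80 (n = 27 cells), with insulin from 1244 to 111886 CPM and the folding sum from 1779 to 13445 CPM. On EA06 and EA07 it was 0.94 (n = 6) and 0.57 (n = 8). On EA01, EA02 and EA03 it was 0.18 (n = 10), -0.50 (n = 8) and 0.08 (n = 10). In acinar cells it was 0.42 (n = 43), and 0.41 with cells thinned to 200000 counts. The 3 plates with the highest values were those with the lower Rn45s share, and the part of that share was not tested. Both sums share each cell's total, and the folding sum of EA05 had a rank correlation of -0.42 with that total. These values are descriptions of the cells and carry no test.

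**Figure D5:**
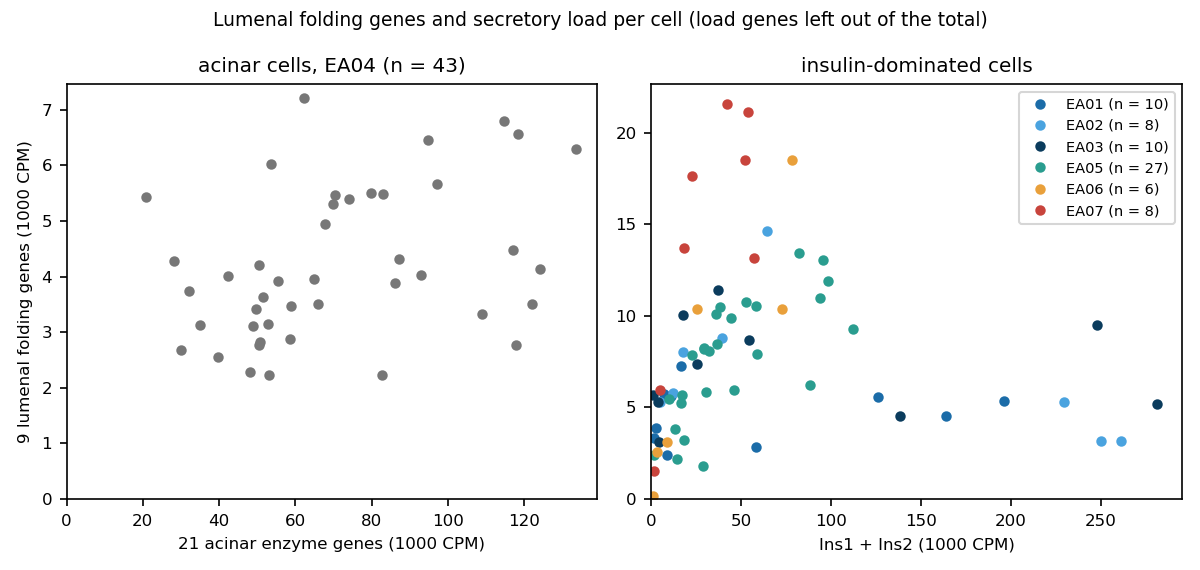
Summed level of the 9 lumenal chaperones and partners against the summed product genes in each cell (both in 1000 CPM, product genes left out of the total), for acinar cells and for insulin-dominated cells of 6 plates. The rank correlation is 0.42 in 43 acinar cells, 0.80 in 27 insulin-dominated cells of EA05 and -0.50 in 8 of EA02.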

How the data were processed

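The deposited table held unnormalised whole-number counts of reads, made by the authors with STAR and HTSeq on mm10, per the submitters' processing notes, which also name FastQC. The sources used here give no versions, strand use or sort, so reads of overlapping genes (Manf, Pdia3, Pdia6, Ddit3, Syvn1, Derl2, Sec61a1 and Hsp90b1) may be shared. Each column was matched to 1 sample by name. The column names carry the knock-in word for EA06 and EA07 too, and the groups follow the labels. No 2 cells were identical. Doublets were not called.

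Counts were divided by each cell's total and multiplied by 1000000 (CPM). 3 counts were 2.54 to 15.0 CPM, depending on the cell. The pseudocount was 5 CPM, members counted as measured if either class reached 20 CPM, and 5 cells were the least for a class on a plate. Exact intervals are Clopper-Pearson at 95%, for counting error only. Shares of all genes past 2-fold are given beside the counts for reference and are not a test. Python 3.11.15 with numpy 2.4.6, pandas 2.3.3, scipy 1.17.1 and matplotlib 3.10.9 was used, with edgeR 4.0.16 (TMM) and DESeq2 1.42.0 (size factors) in R 4.3.3 for scaling alternatives only. The steps were checked on simulated counts for insulin-dominated against Neurog3-positive cells only. With few, skewed cells the log of a mean is biased low, so changed genes were read there against unchanged ones. The part of this bias in the all-gene medians was not tested. All 35 members and 114 genes of 7 further lists were reported by a rule of 2-fold, and 13 marker lists were summed. Of the listed genes, 1 (Vimp) had no row. The members and lists were chosen with earlier results of these data known, so counts above those shares are no independent support. Ero1l and Ero1lb are named as in the table. Exon lengths are from the GENCODE annotation of GRCm38.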

Additional observations from a re-analysis of the deposited data

Results flagged for a closer look

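Of 64 groups of plate levels of a member within a class, 20 had 1 plate far from the others. No class lay on more than 6 plates. The nominal rate of such flags is about 1 in 20. Members were read in the same cells, so the groups are not independent and no excess is read from the 20. In insulin-dominated cells, 10 of these were EA07 (8 cells), always above the other 5 plates. These were Hspa5 at 4600.2 CPM (others 1330.5 to 2528), Hsp90b1 at 3420.0 (1010.1 to 1486), Hyou1 at 690.2 (21.4 to 139.2), Sdf2l1 at 1215 (163 to 293), Calr at 2555 (1018 to 1468), Pdia3 at 2684 (709.9 to 1291), Pdia4 at 1367 (423 to 645), Pdia6 at 2481 (878 to 1375), P4hb at 3160.3 (973 to 1607) and Sec61a1 at 1245 (314 to 602). EA07 had the highest median depth, 851992 counts per cell, and its part in these levels was not tested. Without EA07 the count of members 2-fold higher in insulin-dominated cells stayed within 23 to 26.

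Other insulin-dominated plates apart from the rest were EA02 for Chac1 (38.9 CPM, others 0 to 0.302), EA06 for Derl1 (486, others 92.5 to 176) and EA05 for Derl2 (403, others 158 to 218).

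In Neurog3-positive cells, EA05, with 7 cells, stood apart for Eif2ak3 (164 CPM, others 0 to 28.04), Atf4 (684, others 267 to 351) and Derl1 (216, others 36.6 to 93.5). EA06 did so for Dnajc3 (264, others 2.25 to 75.9) and Ero1l (119.5, others 3.07 to 27.8), and EA07 for Sdf2l1 (46.3, others 0 to 2.22) and Pdia3 (724, others 200.1 to 393).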

How the results depend on the processing

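No paired analysis was possible because replicate numbers only number the cells; where a plate held both classes, the reported ratios are already within plates. Under the alternatives, 418 values of counts and medians stayed close to the reported ones and 65 did not; for single members 1710 stayed close, 6 changed direction and the others moved in size only. The cause was not tested except where stated.

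With the median over cells, which is 0 for many sparse genes, the median log2 ratio became 3.93 for acinar against Neurog3-positive cells, 1.38 against other EA04 cells, -0.21 against insulin-dominated cells, 4.21 for insulin, 1.26 for glucagon, 1.79 for somatostatin and 1.75 for ghrelin against Neurog3-positive cells, and 3.59 for insulin against glucagon. Members higher became 5 (acinar against insulin), 7 (glucagon) and 13 (somatostatin), and members lower 1, 1, 0, 2, 1, 0 and 0 for acinar against Neurog3-positive and other EA04 cells, insulin, glucagon, somatostatin, ghrelin, and insulin against glucagon. Over all genes it moved the acinar median by 2.70 and the insulin median by 1.22.

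For acinar against Neurog3-positive cells, 1 member was lower with a pseudocount of 20 CPM, without Rn45s, without Rn45s and product genes (median 1.54), with TMM (1.57) or DESeq2 factors (1.71), or with cells pooled; the all-gene median moved by 0.34 with TMM and 0.51 with DESeq2. Against insulin, members higher became 5 without Rn45s (median -0.26) and without product genes too, and 7 with TMM (-0.17) or DESeq2 (-0.079); the median was -0.32 without hormone cells carrying Neurog3. Against other EA04 cells, 1 was lower with no filter or stricter classes. For insulin against Neurog3-positive cells, 0 were lower with a pseudocount of 20 CPM, stricter classes, pooled or capped cells (capped median 2.08). For somatostatin, 16 were higher with stricter classes (4 lower) and without cells carrying Neurog3. The latter setting also drops plate EA06, where 2 of 5 cells carried Neurog3 and fewer than 5 were left. For ghrelin, 5 were higher with pooled cells, 4 lower with stricter classes or capping, and the median was 0.32 with no filter and 0.49 thinned. For insulin against glucagon, 2 were lower with summed counts and 0 with capping. Between stages, 1 was lower with a pseudocount of 20 CPM, and against EA05 alone 11 were higher and 5 lower.

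With 1 plate left out, medians ranged from 1.19 to 1.35 (acinar against Neurog3-positive; 18 to 20 higher, 1 to 2 lower), -0.45 to -0.34 (acinar against insulin; 3 to 4, 5 to 9), 1.68 to 1.80 (insulin; 23 to 26, 0 to 1), 0.33 to 0.91 (somatostatin; 9 to 14, 6 to 11), 0.35 to 0.62 (ghrelin; 11 to 12, 4 to 5) and -0.14 to 0.50 (stages; 3 to 7, 2 to 5). Direction changed for Herpud1 (0.85, median over cells) and Atf6 (0.22, stricter classes) in somatostatin, and for Hyou1 in ghrelin (-0.21 without EA06). Between stages it changed for Eif2ak3 (1.06 without EA05), Sdf2l1 (-0.29 without EA07) and Ddit3 (-0.074 capped). Without EA06, Eif2ak3 (-2.75) and Sdf2l1 (3.07) kept their direction between stages. Depth limits levels near 2.54 CPM, the worth of 3 counts in the deepest cell.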
